A study of Mus musculus with 15 samples.

Results

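Levels of 8 genes, most known from neural tube progenitors and Glra1 from neurons, were followed through every sorted population of a mouse stem cell differentiation. The 8 were Fabp7, Rfx4, Msx3, Glra1, Irx3, Nes, Ptn and Foxb1. They were taken by symbol from the 56092 named genes of the deposited expression table, and all 8 were found. They had been put together as spinal cord progenitor genes, several at or near 0 before 7 d of culture, so they were chosen by their measured CPM before and at 7 d, and that step is described here with no test. Not all were near 0 then. Ptn stood between 53.3 and 206 CPM (counts per 1000000) in all 7 earlier libraries, Irx3 between 3.71 and 22.4 CPM and Nes between 5.44 and 18.3 CPM. Fabp7 was at 0.965 to 16.2 CPM. Foxb1 stood between 111 and 205 CPM in all 7 earlier libraries and was lower in most 7 d libraries.

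The spinal cord forms from a neural tube whose wall is made of dividing progenitors, the neuroepithelium and later the radial glia. Signals from the dorsal and ventral edges of the tube divide these progenitors into domains, each marked by its own transcription factors. In the caudal embryo part of the tube comes from neuromesodermal progenitors (NMPs), which also give rise to paraxial mesoderm. FGF and WNT signals maintain these progenitors, and cells leave that state for neural or mesodermal fates.

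All libraries came from the mouse embryonic stem cell line STR-KI, of the genotype Sox2::mCherry/WT, Tbxt::GFP/WT, in which 1 fluorescent reporter marks each of those genes. All groups share an induction with 10 ng/mL FGF2 for 48 h, followed by 24 h of FGF2 with 5 µM CHIRON99021 (CHIR, an inhibitor of GSK3 that activates WNT signalling). Cells carrying both reporters were the NMP group (3 libraries). NMPs kept in FGF/CHIR for 48 h were sorted by the Sox2 reporter (Sox2 48 h, 2 libraries) or by the Tbxt reporter (Tbxt 48 h, 2 libraries). Sox2-reporter cells cultured for 7 d in FGF were sorted as reporter-positive (FGF Sox2+, 2 libraries) or double negative (FGF DN, 1 library). The same sorts after 7 d in FGF/CHIR gave FGF/CHIR Sox2+ and FGF/CHIR DN, with 1 library each. Tbxt-reporter cells cultured for 7 d in FGF/CHIR were sorted as double negative (Tbxt 7 d, 3 libraries). The sample labels give 7 d as the culture time and the series' text counts it from NMP induction, so whether the 7 d begin at induction or at the 48 h sort is uncertain. The labels do not say whether replicates were separate cultures, so the p-values measure the spread between these libraries, which may be technical.

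Depth was 3.43 to 9.88 M counts in 14 libraries (M, 1000000), where 3 counts are worth 0.304 to 0.874 CPM. FGF Sox2+ replicate 2 was far shallower, with 0.799 M counts and 3 counts worth 3.76 CPM. A value at or under 3 counts is treated as not distinguishable from 0, and these limits cover counting error only. Tbxt 7 d replicate 1 stood apart from the other two of its group, including in Irx3 and Nes. The sort on Sox2 was visible in the RNA: Sox2 was 390 and 388 CPM in FGF Sox2+ and 199 CPM in FGF/CHIR Sox2+, against 29.1 and 5.03 CPM in the DN cells of the same media and 0 to 1.46 CPM in Tbxt 7 d.

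The spinal label was checked against position genes. Hoxc6, Hoxc9 and Hoxc10, which mark trunk levels of the neural tube and of the mesoderm alike, were 27.0 and 22.5, 38.2 and 31.3, and 17.9 and 35.1 CPM in the FGF Sox2+ libraries. In the same libraries the hindbrain gene Egr2 was 24.0 and 51.3 CPM. The 8 forebrain and midbrain genes summed to 36.9 and 45.1 CPM, with Otx2 at 7.01 and 0 CPM. The list of 10 hindbrain and spinal position genes summed to 203 and 245 CPM in FGF Sox2+, against 854 CPM in FGF/CHIR Sox2+ and 840 to 848 CPM in Sox2 48 h. The population with the highest levels of most of the 8 genes thus held RNA of both hindbrain and trunk position genes, and the 8 are called neural tube genes here.

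Rfx4, Msx3 and Fabp7 were high together in 1 population, and their promoters are shown here so that the stretch before each gene can be read beside its values. Rfx4 encodes a winged-helix transcription factor of the neural tube, Msx3 a homeobox factor of its dorsal part, and Fabp7 the brain fatty acid-binding protein, a classic radial glia marker. The windows run from 250 bases before to 50 bases after the RefSeq start (build GRCm38.p6, 5′ to 3′ on the gene's strand): Fabp7 at chr10:57784673-57784972 on the plus strand, the upstream of 2 Rfx4 windows at chr10:84755798-84756097 on the plus strand, and Msx3 at chr7:140049039-140049338 on the minus strand. Capitals mark matches to the motifs named after them.
Fabp7: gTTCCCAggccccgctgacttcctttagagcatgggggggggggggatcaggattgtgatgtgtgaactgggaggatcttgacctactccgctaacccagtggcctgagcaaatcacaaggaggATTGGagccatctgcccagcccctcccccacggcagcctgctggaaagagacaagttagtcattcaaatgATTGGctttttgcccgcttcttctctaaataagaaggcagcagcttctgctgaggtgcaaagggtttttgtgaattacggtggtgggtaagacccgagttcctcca
Rfx4: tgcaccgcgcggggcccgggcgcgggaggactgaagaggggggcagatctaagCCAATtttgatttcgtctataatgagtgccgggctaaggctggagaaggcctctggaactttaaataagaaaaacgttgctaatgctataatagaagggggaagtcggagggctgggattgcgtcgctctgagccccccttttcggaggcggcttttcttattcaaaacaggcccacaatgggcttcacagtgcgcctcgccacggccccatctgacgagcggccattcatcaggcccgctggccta
Msx3: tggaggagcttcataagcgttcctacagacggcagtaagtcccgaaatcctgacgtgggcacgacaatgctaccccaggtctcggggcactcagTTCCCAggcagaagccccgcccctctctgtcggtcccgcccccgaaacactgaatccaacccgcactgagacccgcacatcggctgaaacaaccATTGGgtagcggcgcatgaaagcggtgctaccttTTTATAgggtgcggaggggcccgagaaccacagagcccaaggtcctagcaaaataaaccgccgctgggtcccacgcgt

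Of the 8 genes, 6 had a window in the RefSeq table, 7 windows in all; Glra1 and Foxb1 had none. The letters TGGGAA, the core bound by RBPJ, the DNA-binding partner of Notch, were found on either strand in 4 of 7 windows, beside 25.6% of the 32851 windows of all genes. In the printed windows the match lies on the minus strand of the gene, at -249 in Fabp7 and -156 in Msx3, counted from the start to the match's first base. CCAAT, a common promoter element, was in 4 of 7 windows against 37.4% of all, at -126 and -56 in Fabp7, -197 in Rfx4 and -62 in Msx3. Of these, the Fabp7 and Msx3 matches lie on the minus strand of the gene and the Rfx4 match on the plus strand. TATAAA was in the Msx3 window at -28, also on the minus strand of the gene, and in 13.6% of all windows. AACAAT (SOX factors, 10.7% of all windows), ATGCNAAT (POU factors, 3.15%), GTTGCC (RFX factors, 12.5%), TAATTA (homeodomain factors, 5.29%) and CTTTGA (TCF/LEF, 16%) were in none of the 7 windows, on either strand. In the Ptn window the RBPJ and CCAAT matches overlap. A match is a run of letters, not a known binding site.

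Across the 8 groups, Fabp7, Rfx4, Msx3, Glra1, Irx3, Nes and Ptn each had their highest mean in FGF Sox2+ at 7 d. For these 7 genes, both FGF Sox2+ libraries lay above every library of any other group. Foxb1 instead peaked in the 48 h groups. Because these are bulk libraries, fewer cells of a type and less RNA per cell cannot be told apart at any of these levels.

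**Figure D1:**
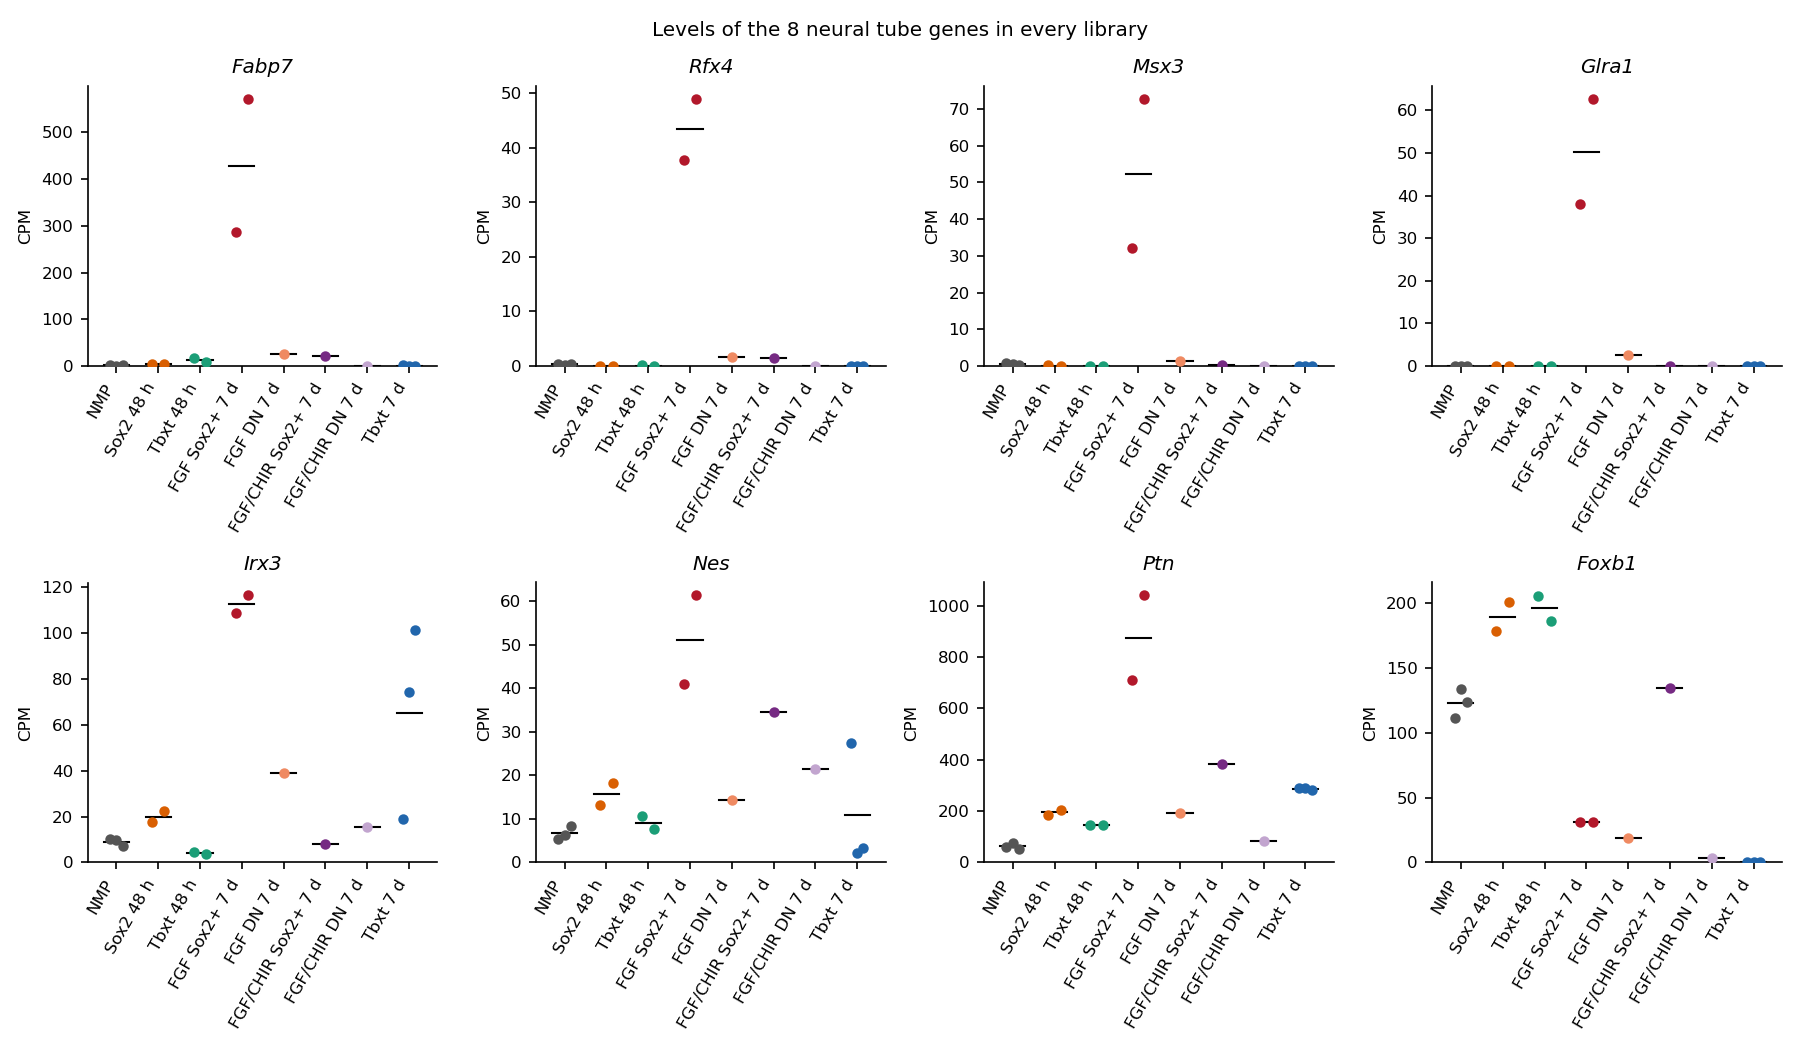
CPM of each gene in all 15 libraries (points) with the group mean (line), by sorted group; each panel has its own axis from 0. FGF Sox2+ libraries are the highest in 7 panels, and the Foxb1 panel shows 111 to 205 CPM before 7 d, 134 CPM in FGF/CHIR Sox2+ and 0 to 0.291 CPM in Tbxt 7 d.

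Glra1 encodes a subunit of the glycine receptor, the inhibitory chloride channel of spinal cord and brainstem neurons. It was at 0 in all 7 libraries taken before 7 d, in both FGF/CHIR libraries and in all 3 Tbxt 7 d libraries. It was 38.0 and 62.6 CPM in FGF Sox2+ and 2.68 CPM, 13 counts, in FGF DN. Counts of Glra1 were thus found in FGF libraries only, and its level was 18.8-fold higher in the Sox2+ than in the DN sort of that medium. Against FGF/CHIR Sox2+ the mean of 50.3 ± 17.4 CPM (SD, n = 2) was at least 163-fold higher, a bound taken at 3 counts.

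Other parts of the channel and its synapse were also measured. Of 8 listed genes for glycine receptors and inhibitory synapses, 3 passed the expression filter (at least 5 CPM in at least 2 libraries): Glrb, Gphn and Slc6a9. Glrb, the β subunit, was 5.73 and 6.26 CPM in FGF Sox2+ and 21.8 to 30.3 CPM in Tbxt 7 d, a difference of -1.94 ± 0.25 on the log2 scale (± SE, limma, adjusted p = 3.98e-05). In the 7 libraries taken before 7 d, where Glra1 was also at 0, Glrb was 1.11 to 3.38 CPM. Gphn, the scaffold gephyrin, and Slc6a9, a glycine transporter, were higher in FGF Sox2+, by 1.02 ± 0.31 (limma, adjusted p = 0.0162) and 0.85 ± 0.31 (0.0399).

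Rfx4 was 0.161 to 0.389 CPM in NMPs, 0 in both Sox2 48 h libraries, and 0.101 and 0 CPM in Tbxt 48 h, all at or under 3 counts. At 7 d it was 37.8 and 48.8 CPM in FGF Sox2+, 1.65 CPM in FGF DN, 1.44 CPM in FGF/CHIR Sox2+, and 0 in FGF/CHIR DN and in all 3 Tbxt 7 d libraries. Both media thus gave counts in the Sox2+ sort, 30.1-fold more CPM in FGF than in FGF/CHIR. The mean of 43.3 ± 7.80 CPM (SD, n = 2) was at least 57.6-fold above Tbxt 7 d.

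Msx3 was 0.232 to 0.907 CPM in NMPs, where 1 of the 3 libraries exceeded 3 counts, 0.252 and 0 CPM in Sox2 48 h, and 0 in Tbxt 48 h. FGF Sox2+ held 32.1 and 72.6 CPM, a 2.27-fold gap between replicates that was the widest among the 8 genes. FGF DN had 1.24 CPM and FGF/CHIR Sox2+ 0.206 CPM, the latter 2 counts. FGF/CHIR DN and all 3 Tbxt 7 d libraries were at 0, and FGF Sox2+ was at least 69.6-fold above the Tbxt 7 d group.

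The relatives of Msx3 were not arranged this way. Msx1, a factor of the dorsal tube that is also active in mesenchyme, was 48.6 and 145 CPM in FGF Sox2+, 222 CPM in each of the FGF/CHIR libraries and 605, 107 and 65.3 CPM in Tbxt 7 d. Msx2 was 13.2 and 15 CPM in FGF Sox2+ against 75.4, 30.9 and 12.6 CPM in Tbxt 7 d. Neither differed between FGF Sox2+ and Tbxt 7 d past the threshold (limma, adjusted p = 0.362 for Msx1 and 0.107 for Msx2).

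Fabp7 was measurable in every library before 7 d, at 0.965 to 1.94 CPM in NMPs, 4.54 and 4.80 CPM in Sox2 48 h, and 16.2 and 8.78 CPM in Tbxt 48 h. At 7 d it reached 287 and 571 CPM in FGF Sox2+, against 24.8 CPM in FGF DN, 21.4 CPM in FGF/CHIR Sox2+, 0 in FGF/CHIR DN, and 1.16, 0 and 0 CPM in Tbxt 7 d. The single libraries of FGF DN and FGF/CHIR Sox2+, next in order, lay close together at 17.3-fold and 20.1-fold below FGF Sox2+. Another fatty acid-binding gene, Fabp3, had the opposite sort: 526 CPM in FGF DN and 382 CPM in FGF/CHIR DN, against 33.7, 31.3 and 5.96 CPM in the Sox2+ libraries (Sox2+ minus DN -4.88 ± 0.27, limma, adjusted p = 3.66e-07).

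Ptn encodes pleiotrophin, a secreted growth factor that binds heparan sulfate proteoglycans and the receptor phosphatase Ptprz1. It was 53.3 to 75.7 CPM in NMPs, 184 and 206 CPM in Sox2 48 h, and 145 and 146 CPM in Tbxt 48 h. At 7 d it was 710 and 1041 CPM in FGF Sox2+, 384 CPM in FGF/CHIR Sox2+, 194 CPM in FGF DN, 82.5 CPM in FGF/CHIR DN and 280 to 291 CPM in Tbxt 7 d. Unlike Glra1, Rfx4 and Msx3, it had a high level in every group, and the order of groups was clear except that FGF DN lay within the range of Sox2 48 h.

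Nes encodes nestin, the intermediate filament protein used as a marker of neural progenitors and also found in some mesenchymal cells. It was 5.44 to 8.36 CPM in NMPs, 13.1 and 18.3 CPM in Sox2 48 h, and 10.6 and 7.59 CPM in Tbxt 48 h. At 7 d it was 41.0 and 61.4 CPM in FGF Sox2+, 34.6 CPM in FGF/CHIR Sox2+, 21.5 CPM in FGF/CHIR DN, 14.4 CPM in FGF DN, and 27.4, 2.18 and 3.42 CPM in Tbxt 7 d. In the order of group means, each pair of neighbours from the fourth group, Sox2 48 h, to the lowest, NMP, overlapped.

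Irx3, an Iroquois homeobox factor of the intermediate neural tube that is also active in mesoderm, was 7.31 to 10.1 CPM in NMPs, 17.7 and 22.4 CPM in Sox2 48 h, and 4.66 and 3.71 CPM in Tbxt 48 h. At 7 d it was 109 and 116 CPM in FGF Sox2+, 39.0 CPM in FGF DN, 8.22 CPM in FGF/CHIR Sox2+ and 15.5 CPM in FGF/CHIR DN. The Tbxt 7 d libraries held 18.9, 74.4 and 101.5 CPM, the highest of them close to the lower FGF Sox2+ library but not overlapping it.

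Other Iroquois genes, which lie in 2 clusters, are given beside it. Irx5, a neighbour of Irx3, was 80.7 and 72.6 CPM in FGF Sox2+ and 38.4, 154 and 230 CPM in Tbxt 7 d, a difference of -0.53 ± 0.57 (limma, adjusted p = 0.471). Irx1 and Irx2, in the other cluster, were 47.3 and 78.9 CPM and 93.0 and 131 CPM in FGF Sox2+, but 1.32 to 9.32 CPM and 0.594 to 3.79 CPM in Tbxt 7 d. Both were higher in FGF Sox2+, Irx1 by 3.88 ± 0.49 (limma, adjusted p = 4.88e-05) and Irx2 by 5.48 ± 0.38 (limma, adjusted p = 3.06e-07).

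**Figure D2:**
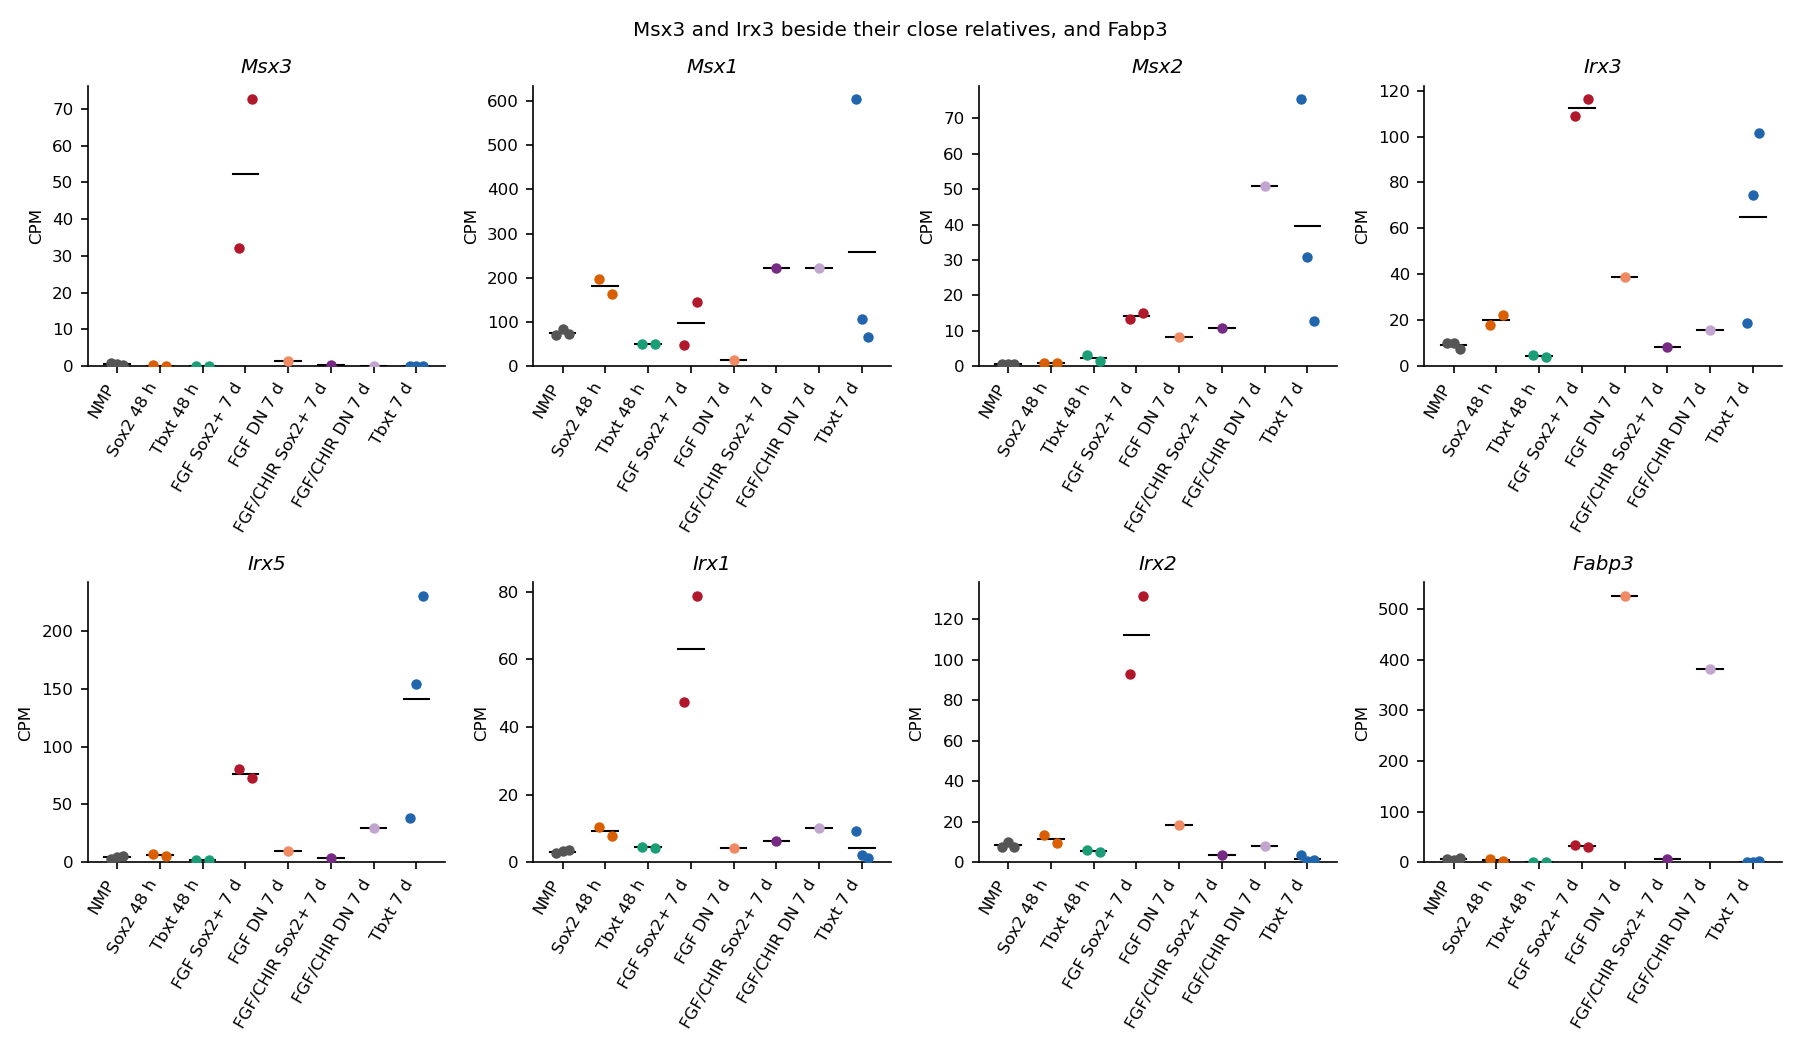
CPM of Msx3 and Irx3 and of their relatives, and of Fabp3, in all 15 libraries (points; line, group mean), each panel with its own axis from 0. Msx3, Irx1 and Irx2 peak in FGF Sox2+, Msx1 and Irx5 are highest in a Tbxt 7 d library, and Fabp3 is highest in the DN libraries (526 and 382 CPM).

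Foxb1, a forkhead transcription factor of the early neural plate and neural tube, ran against the other 7. It was 111 to 133 CPM in NMPs, 178 and 201 CPM in Sox2 48 h, and 205 and 186 CPM in Tbxt 48 h. At 7 d it was 134 CPM in FGF/CHIR Sox2+, 31.4 and 31.3 CPM in FGF Sox2+, 18.8 CPM in FGF DN, 3.20 CPM in FGF/CHIR DN, and 0.291, 0 and 0 CPM in Tbxt 7 d. FGF/CHIR Sox2+ therefore held 4.28-fold more than FGF Sox2+ and lay just above the NMP libraries. The Tbxt sort overlapped the Sox2 sort at 48 h, and these 2 groups had the highest means. The Tbxt-derived cells had the lowest mean of all groups at 7 d. B230323A14Rik, annotated on the opposite strand of Foxb1, was also lowest in Tbxt 7 d, at 0 to 0.291 CPM, with 9.07 to 12.4 CPM in NMPs, 16.8 CPM in FGF/CHIR Sox2+ and 2.50 and 3.82 CPM in FGF Sox2+. Whether counting used strand is not stated, so the levels of such pairs are uncertain. Irx3os stayed at or under 1.25 CPM and Gm12236, opposite Glra1, was 0 in every library.

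The first set of tests asked what happened to the 8 genes within 48 h of leaving the NMP state. The choice of the genes had these levels in view, against those at 7 d, so the tests are not independent of it. Ptn rose in both 48 h sorts, and Fabp7 rose in the Tbxt sort. Foxb1 passed in both, but each Foxb1 call was lost with a replicate block (limma, adjusted p = 0.115 in Sox2 48 h and 0.0513 in Tbxt 48 h) and at a pseudocount of 0.25 CPM (0.222 and 0.116). In Sox2 48 h against NMP, Ptn was higher by 1.61 ± 0.17 (limma, adjusted p = 9.49e-05) and Foxb1 by 0.62 ± 0.17 (limma, adjusted p = 0.0368). These are 2 of 5 genes counted, beside 7.92% of the 12943 genes tested. Rfx4, Msx3 and Glra1 are not counted, since they passed the expression filter only through FGF Sox2+ and were at or near 0 here. In Tbxt 48 h against NMP, Fabp7 was higher by 2.48 ± 0.40 (limma, adjusted p = 0.00111), Ptn by 1.19 ± 0.17 (limma, adjusted p = 0.000506) and Foxb1 by 0.67 ± 0.17 (limma, adjusted p = 0.0145), 3 of 5 beside 18.4%. All libraries of the higher group exceeded all NMP libraries in these 5 changes, and both comparisons share the NMP libraries.

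Irx3 and Nes did not pass in either. Irx3 differed by 1.06 ± 0.53 in Sox2 48 h (limma, adjusted p = 0.293) and by -0.96 ± 0.53 in Tbxt 48 h (limma, adjusted p = 0.236). Nes differed by 1.12 ± 0.74 and 0.40 ± 0.74, and Fabp7 in Sox2 48 h by 1.29 ± 0.40 (limma, adjusted p = 0.0717). Without Tbxt 7 d replicate 1, whose Irx3 and Nes levels lay far from the other two of its group, Fabp7, Irx3 and Nes passed in Sox2 48 h (limma, adjusted p = 0.0178, 0.00375 and 0.0125) and Irx3 in Tbxt 48 h (0.00412). The Foxb1 call in Sox2 48 h was lost on leaving out any NMP, Sox2 48 h or Tbxt 48 h library (adjusted p = 0.0546 to 0.304), and that in Tbxt 48 h without NMP replicate 1 (0.0523) or either Tbxt 48 h library (0.0917 and 0.0782).

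Between the 2 sorts at 48 h no member passed (0 of the same 5 counted, beside 3.9% of all genes tested with limma). At an unadjusted p under 0.05 there were 3: Fabp7 at 1.19 ± 0.44, Irx3 at -2.02 ± 0.58 and Ptn at -0.42 ± 0.19, Tbxt minus Sox2. The Sox2 and Tbxt libraries did not overlap in any of these 3 genes. Irx3 passed without Tbxt 7 d replicate 1 (limma, adjusted p = 8.78e-05) or replicate 3 (0.0398). Presomitic mesoderm markers moved with the sort: their 10 genes summed to 705 to 844 CPM in Tbxt 48 h, 69.5 to 83.5 CPM in Sox2 48 h and 120 to 129 CPM in NMPs, and their part in the Fabp7 and Foxb1 levels was not tested.

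**Figure D3:**
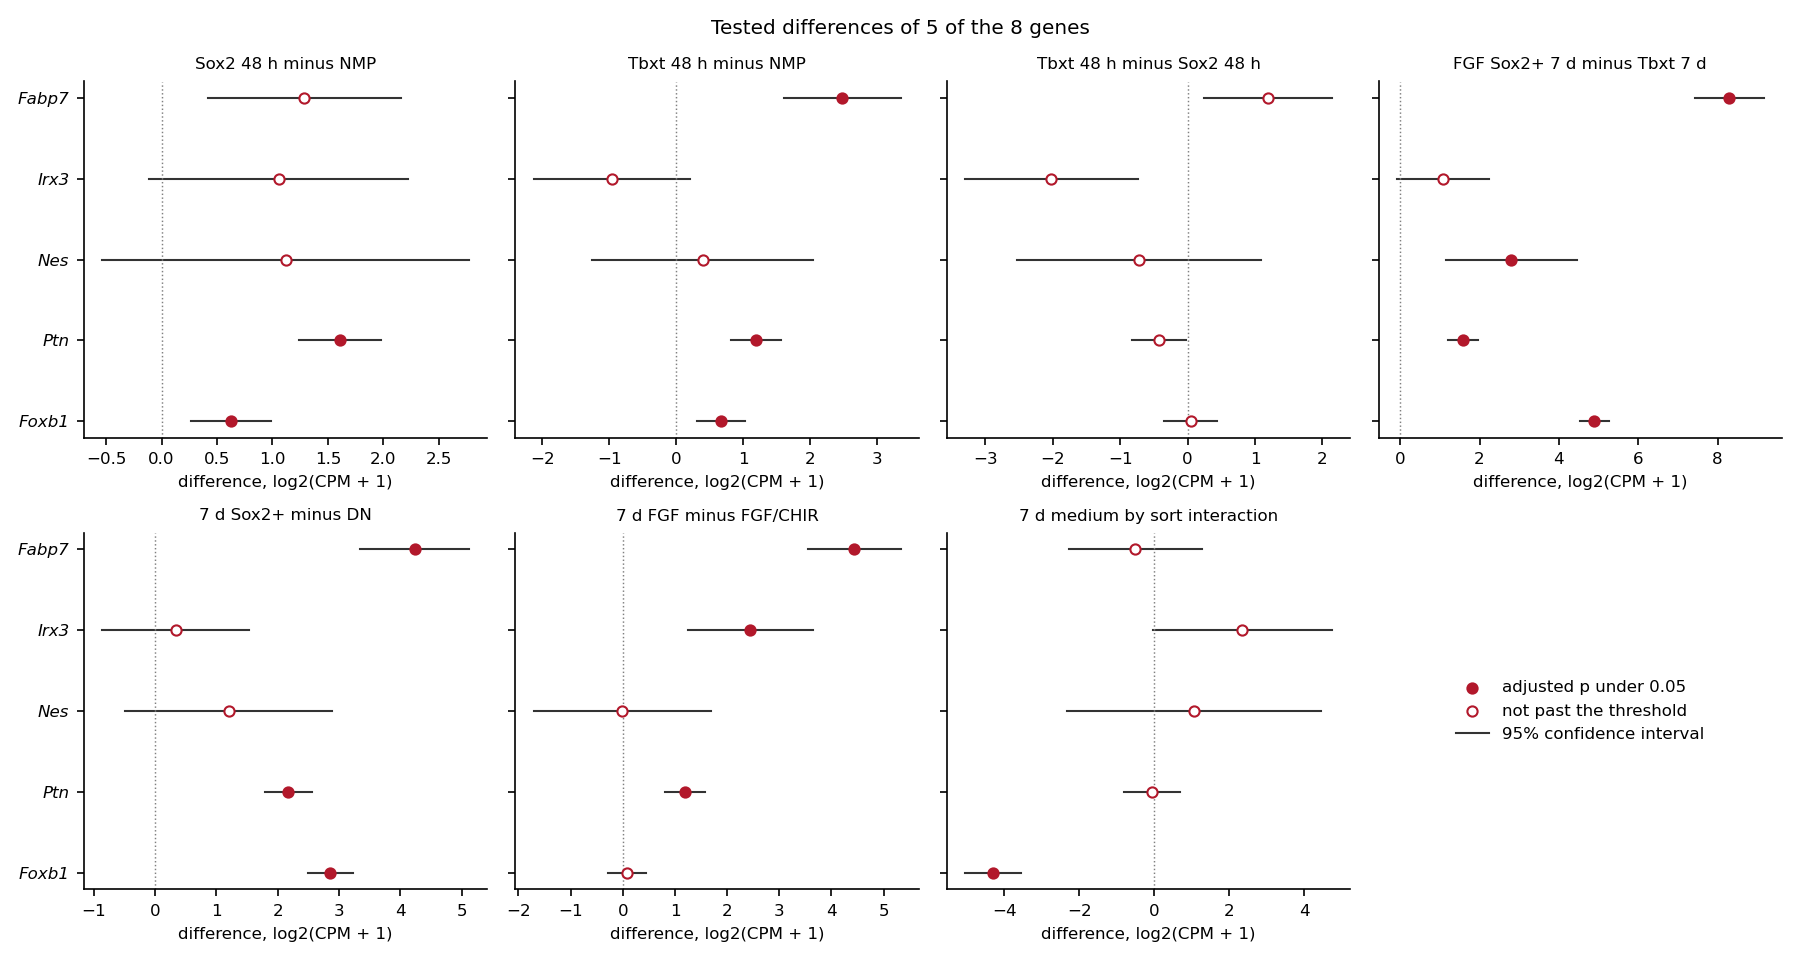
Differences of 5 of the 8 genes in the 7 tested comparisons on the log2(CPM + 1) scale, with 95% confidence intervals; filled points have an adjusted p under 0.05. Rfx4, Msx3 and Glra1, which passed the expression filter only through FGF Sox2+, are left out. Ptn and Foxb1 lie above 0 in both comparisons with NMP, and Foxb1 alone lies below 0 with a filled point in the interaction, at -4.30.

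The second set of tests compared the 7 d populations with each other. The choice of the genes had the 7 d levels in view too, so these tests and counts are not independent of it. Rfx4, Msx3 and Glra1 entered the tests only through the FGF Sox2+ libraries, the only ones with 5 CPM or more, so they had to differ wherever that group was compared. No test of them is given, and counts are over the other 5 genes. Counts of listed genes below are likewise over those that pass the filter without the libraries of either side compared.

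FGF Sox2+ was then compared with Tbxt 7 d, groups that differ at once in starting reporter, final sort and medium (FGF against FGF/CHIR). The parts of these in the differences cannot be told apart. Fabp7, Foxb1, Nes and Ptn were higher in FGF Sox2+, 4 of the 5, beside 47.6% of all tested genes in either direction. The differences were 8.29 ± 0.40 for Fabp7 (limma, adjusted p = 1.89e-08), 4.89 ± 0.17 for Foxb1 (1.81e-09), 2.80 ± 0.74 for Nes (0.0108) and 1.58 ± 0.17 for Ptn (1.11e-05). The Tbxt 7 d means of Fabp7 and Foxb1 were at or under 3 counts, so those 2 log2 values depend on the added 1 CPM. Irx3 differed by 1.08 ± 0.53 (limma, adjusted p = 0.116) and passed without Tbxt 7 d replicate 3 (0.0211). Nes lost its call without FGF Sox2+ replicate 2, the shallow library (limma, adjusted p = 0.0646).

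Mesenchyme markers lay in the opposite direction to the members. Their 10 genes summed to 137 and 477 CPM in FGF Sox2+ and 6583 to 8303 CPM in Tbxt 7 d, and 6 of 8 counted were lower in FGF Sox2+, with a median of -4.18 beside 0.07 over all genes. The neuron list moved with the members: it summed to 301 and 979 CPM in FGF Sox2+ and to 113 to 177 CPM in Tbxt 7 d. The higher value was in replicate 2, the shallow library. That library was also higher for all members but Foxb1 and for the mesenchyme, presomitic and neural crest sums, and lower for the pluripotency sum. Of 7 neuron genes counted, 5 were higher in FGF Sox2+ and 0 lower, among them Elavl4 at 5.28 ± 0.39 and Ina at 4.82 ± 0.54. Presomitic markers summed to 105 and 194 CPM in FGF Sox2+ and 6.06 to 11.6 CPM in Tbxt 7 d, with 4 of 6 higher and 0 lower. The 6 were Dll1, Dll3, Hes7, Lfng, Tbx6 and Tcf15. Msgn1, on the same list, was at 0 in every library of both groups. Neural crest markers, 8 genes, summed to 88.5 and 187 CPM against 15 to 44.7 CPM, with 1 of 3 higher and 0 lower. Pluripotency markers, 7 genes, summed to 220 and 69.2 CPM in FGF Sox2+ and 27.4 to 101.3 CPM in Tbxt 7 d. The part of these other cell types in the members' levels was not tested.

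Within the Sox2-derived cultures, the Sox2+ sort was compared with the DN sort over both media. Fabp7, Ptn and Foxb1 were higher in Sox2+, 3 of the 5, beside 14.1% of all genes. The differences were 4.23 ± 0.41 for Fabp7 (limma, adjusted p = 2.50e-05), 2.17 ± 0.17 for Ptn (5.07e-06) and 2.86 ± 0.17 for Foxb1 (6.02e-07). The Foxb1 value averages unlike ratios, 1.67-fold in FGF and 41.9-fold in FGF/CHIR. Fabp7 was at 0 in FGF/CHIR DN, so its value depends on the added 1 CPM and was 3.25 to 5.23 over the alternatives. Irx3 differed by 0.33 ± 0.54 (limma, adjusted p = 0.728) and Nes by 1.20 ± 0.76 (0.331), and Nes passed without Tbxt 7 d replicate 1 (0.00697). Of all genes 905 were higher and 921 lower, a split that became 610 and 1206 under median-of-ratios scaling, which moved the median of all genes from 0.10 to -0.01. The 7 pluripotency markers summed to 484 CPM in FGF DN against 220 and 69.2 CPM in FGF Sox2+, and to 408 CPM in FGF/CHIR DN against 19.5 CPM in FGF/CHIR Sox2+. The mesenchyme sum was 773 CPM against 137 and 477 CPM in FGF, and 2532 CPM against 582 CPM in FGF/CHIR. The part of these cells in the members' differences was not tested.

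The medium was then compared over both sorts. Fabp7 was higher in FGF than in FGF/CHIR by 4.43 ± 0.41 (limma, adjusted p = 2.98e-05), Irx3 by 2.45 ± 0.54 (0.0129) and Ptn by 1.19 ± 0.17 (0.000725), 3 of the 5 beside 13.8% of all genes. The Fabp7 value also depends on the added 1 CPM, with FGF/CHIR DN at 0, and was 3.43 to 5.44 over the alternatives. For Irx3 all 3 FGF libraries (39.0 to 116 CPM) exceeded both FGF/CHIR libraries (8.22 and 15.5 CPM). Nes differed by -0.01 ± 0.76 and Foxb1 by 0.09 ± 0.17, with 95% intervals of -1.70 to 1.68 and -0.28 to 0.45. The small Foxb1 mean joined opposite orders: FGF was below FGF/CHIR in the Sox2+ sort and above it in the DN sort, at 18.8 against 3.20 CPM. Other lists also moved with the medium. Of 9 position genes counted all were lower in FGF. The hindbrain gene Egr2 is not counted, since it reached 5 CPM in FGF libraries only, and it lay the other way. It was 12.2 to 51.3 CPM in FGF and 0.229 and 0.411 CPM in FGF/CHIR. Of 10 mesenchyme genes 4 were lower in FGF and 0 higher. Of 7 neuron genes 3 were higher and 0 lower, and of 5 pluripotency genes 3 were higher and 0 lower. The part of these cells in the members' differences between media was not tested.

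Whether the sort made the same difference in each medium was tested as an interaction. Foxb1 was 1.67-fold higher in Sox2+ than in DN cells in FGF and 41.9-fold higher in FGF/CHIR, an interaction of -4.30 ± 0.34 (limma, adjusted p = 0.000176), the 1 call among the 5 genes beside 2.44% of all genes. For Rfx4, Msx3 and Glra1, not tested here, the FGF/CHIR Sox2+ and DN libraries held 14 and 0, 2 and 0, and 0 and 0 counts. Ptn was 4.51-fold higher in Sox2+ in FGF and 4.66-fold in FGF/CHIR, an interaction of -0.06 ± 0.35 with a 95% interval of -0.82 to 0.69. Irx3 was 2.89-fold higher in Sox2+ in FGF and 0.529 times the DN level in FGF/CHIR, an interaction of 2.35 ± 1.08 that did not pass (limma, adjusted p = 0.356) but did so without Tbxt 7 d replicate 1 (0.00522). Of the 4 groups here 3 are single libraries, so these p-values borrow their error from the replicated groups, and a group and its library cannot be told apart.

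Other neural tube genes from lists chosen for this work are given for comparison. Of 15 neuroepithelium and radial glia genes, 13 were counted, and 5 were higher and 2 lower in FGF Sox2+ than in Tbxt 7 d, a share near the 47.6% of all genes called there, with a median difference of 0.75 beside 0.07 over all genes. Sox1, a transcription factor of neural progenitors, was higher by 7.16 ± 0.33, and Hes5, a Notch target, by 7.11 ± 0.31. Between media, 5 of the 13 were higher in FGF and 1 lower, beside 13.8% of all genes, led by Sox1 at 4.06 ± 0.34. At 48 h, 4 of the 15 rose and 1 fell in the Sox2 sort, beside 7.92% of all genes, including Hmga2 at 2.25 ± 0.13 and Sox1 at 2.19 ± 0.33. In the Tbxt sort 4 rose and 2 fell, beside 18.4% of all genes. Hmga2 rose there too, by 3.12 ± 0.13, while Sox1 differed by -0.97 ± 0.33 and did not pass.

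Dorsal genes were uneven beside Msx3. Of 14 listed, 8 were tested and 4 counted, of which Pax3 was higher in FGF Sox2+ than in Tbxt 7 d (4.92 ± 0.99, limma, adjusted p = 0.00287) and Zic1 lower. The share of all genes called there was 47.6%. Olig3, a factor of the dorsal progenitors, was 11.5 and 88.9 CPM in FGF Sox2+, 3.10 CPM in FGF DN and 0 in Tbxt 7 d, and Pax7 was 18 and 32.6 CPM against 0. These 2 genes reached 5 CPM in FGF Sox2+ only, so they had to differ there and are not tested. Zic1 was lower in FGF than in FGF/CHIR (FGF minus FGF/CHIR -3.41 ± 0.37, limma, adjusted p = 0.000171).

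Ventral genes were mostly low in FGF Sox2+, apart from Irx5 at 80.7 and 72.6 CPM. Nkx6-1 was 10.2 and 3.76 CPM there, against 30.3 and 18.5 CPM in FGF/CHIR Sox2+ and DN. It was lower in FGF than in FGF/CHIR (FGF minus FGF/CHIR -2.85 ± 0.76, limma, adjusted p = 0.034). Of 12 listed, 2 were at 0 in both FGF Sox2+ libraries, and 5 passed the filter and were tested. Of the 4 counted, 2 were higher and 0 lower in FGF Sox2+ than in Tbxt 7 d, a share near the 47.6% of all genes called there. Olig2, which marks the motor neuron domain, was 0.637 and 1.25 CPM in FGF Sox2+, at or under 3 counts in both libraries. Foxa2, known from floor plate and endoderm, was 120 CPM in FGF DN and 1.70 and 2.50 CPM in FGF Sox2+, the second value under 3 counts. It is 1 of the 2 higher genes. Neurog2, a proneural factor, was 4.67 and 37.6 CPM in FGF Sox2+ and 14.4 CPM in FGF/CHIR Sox2+.

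**Figure D4:**
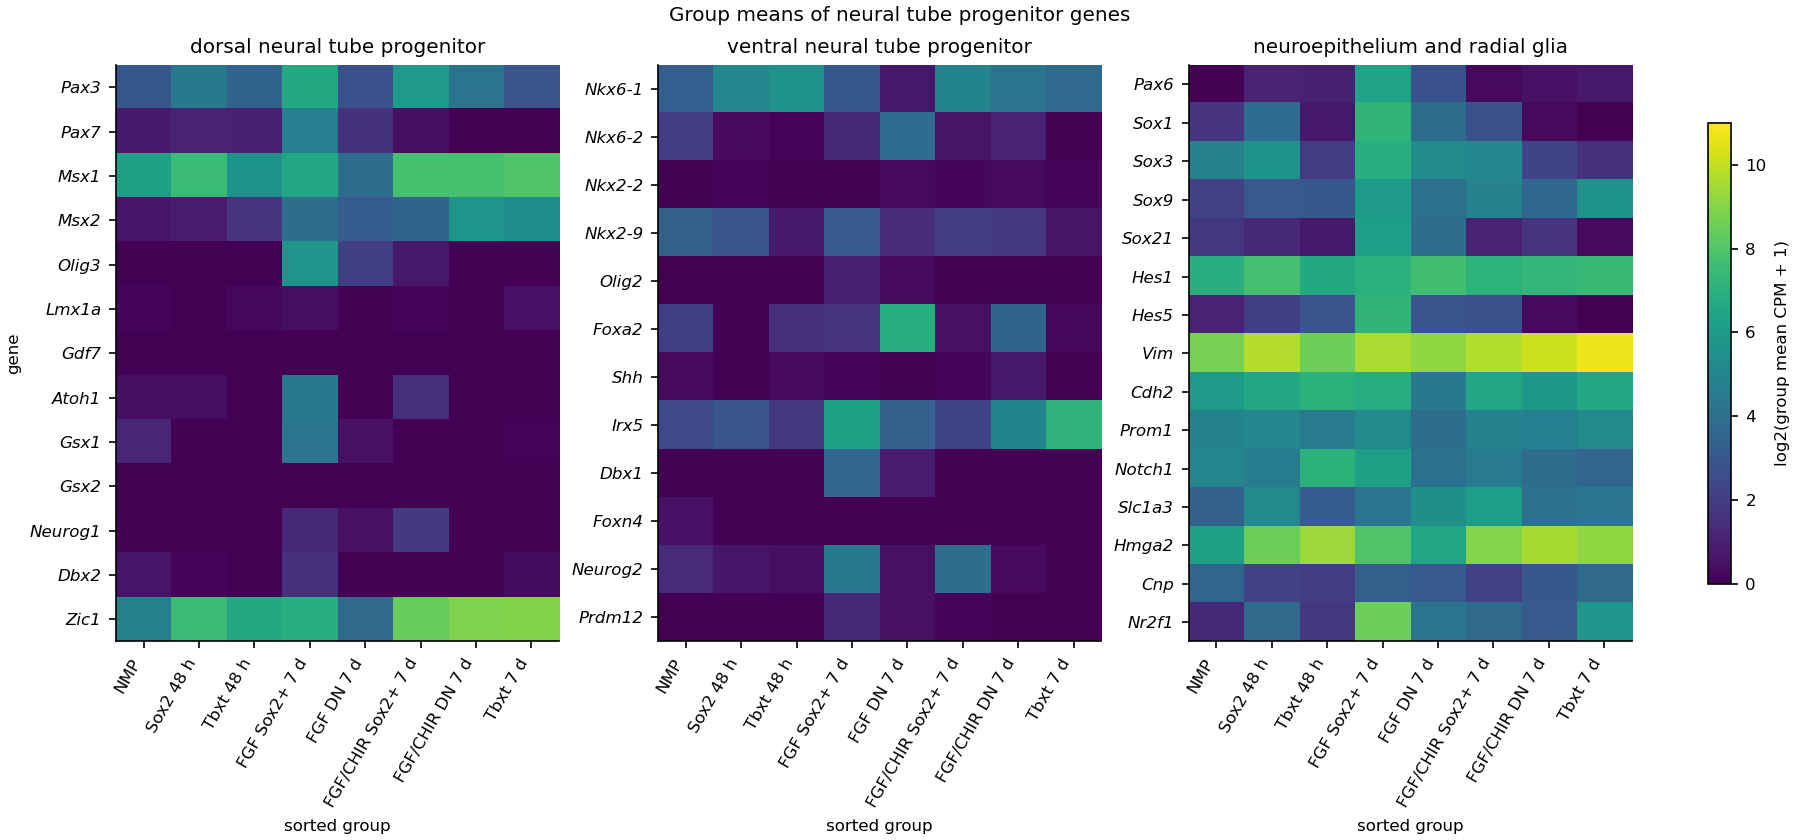
Group means of the reported dorsal, ventral and general neural progenitor genes in the 8 sorted groups, as log2(mean CPM + 1) on 1 colour scale. Olig3, Pax7, Pax6, Sox1 and Hes5 are brightest in FGF Sox2+, Foxa2 in FGF DN and Irx5 in Tbxt 7 d, and Olig2 is dark in every group.

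Among pleiotrophin's partners, Ptprz1 was higher in Tbxt 48 h, at 25 and 42.5 CPM, than in Sox2 48 h, at 3.03 and 2.29 CPM (3.21 ± 0.35, limma, adjusted p = 0.000226), where Ptn itself did not differ past the threshold. In FGF Sox2+ against Tbxt 7 d, 5 of 8 counted partners were lower and 2 higher, beside 47.6% of all genes in either direction, with a median of -0.99. There Ptprz1 was higher by 1.58 ± 0.32, while the syndecans Sdc2 and Sdc1 were lower, with differences of -3.89 ± 0.53 and -2.61 ± 0.24. Mdk, the other member of the pleiotrophin family, was lower in FGF than in FGF/CHIR (FGF minus FGF/CHIR -1.03 ± 0.18, limma, adjusted p = 0.002), opposite to Ptn.

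The likeness of the members to each other and to other genes was described by Pearson's r of log2(mean CPM + 1) over the 8 group means, which share libraries and a few dominant groups, with no test. Rfx4, Msx3 and Glra1 were alike, with r of 0.97 to 0.98, and Foxb1 had r of -0.59 with Irx3. Among 8570 genes searched, the nearest to Fabp7 were Hes5 (r = 0.98) and Ildr2 (0.97), to Rfx4 Olig3 and Nhlh2 (0.98 each), to Msx3 Mir124-2hg (0.99), and to Glra1 Olig3 and Pcdh8 (0.99 each). Irx3 was nearest to Mn1 (0.94) and Dcaf12l1 (0.93), Nes to Gadd45a and Hinfp (0.93 each), and Ptn to Rbm39 (0.96). Foxb1 was nearest to Arid3b and Cdx2 (0.99 each), the second a caudal homeobox factor.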

How the data were processed

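Bulk RNA of 15 sorted libraries in 8 groups was measured. Per the labels, RNA was extracted on beads and primed with oligo-dT carrying unique molecular identifiers, and cDNA was tagmented. The submitters' processing notes name STAR 2.7, SAMtools 1.21 and GRCm39; annotation, counting, strand and identifier handling are not stated there. The authors deposited CPM, which sum to 1000000 per library over 78409 rows. Rows without a name (21909 rows, 1.10 to 1.81% of CPM) and 92 spike-in rows were left out, and 627 rows sharing symbols were summed.

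The commonest lowest step of each library was taken as 1 count. Of nonzero values, 71.1 to 78.7% were whole multiples within 0.01, so whole counts were not recovered and no count test was run. Instead limma 3.58.1 in R 4.3.3 (trend, robust, two-sided) was fitted to log2(CPM + 1) of all 15 libraries for the 12943 genes that reached 5 CPM in 2 or more libraries. P-values were adjusted over all of these within each comparison (Benjamini-Hochberg, threshold 0.05). Differences understate changes of low genes. Groups of 1 library take the spread of the others. Bounds against groups at 0 use 3 counts, averaged over the group's libraries.

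The members and lists were chosen with earlier results of these data known. All members are named, with the 2 most alike genes per member and up to 3 passing genes per list and comparison, except that some genes are not reported here; other markers were chosen after their values were seen. The fit was tested on simulated data. Alternatives were other pseudocounts, filters, scalings, weights, samples and a replicate block. Python 3.11.15 was used with pandas 2.3.3.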

Additional observations from a re-analysis of the deposited data

Results flagged for a closer look

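For Foxb1 the difference between Sox2+ and DN cells at 7 d was itself different between the 2 media, by the limma interaction over 12943 genes. It was larger in FGF/CHIR (-4.30, adjusted p = 0.000176). Both FGF Sox2+ libraries showed this direction, with 1 library in each other group. Over 21 alternatives the adjusted p ranged from 3.96e-07 to 0.00269.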

How the results depend on the processing

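Rfx4, Msx3 and Glra1 are left out here, since they passed the filter only through FGF Sox2+. Of 35 differences of the other 5 members, 16 passed the threshold, and 13 of these passed in every alternative run. The number of members that passed in Sox2 48 h against NMP was 2, became 1 at a pseudocount of 0.25, with no filter and with a replicate block, 4 with array weights and 5 in a fit of the compared groups alone, and ranged from 1 to 5 on leaving out a replicate. Between the 48 h sorts it was 0, became 2 with array weights and with the compared groups alone, and was 0 to 1 without a replicate. In the interaction it was 1, became 2 with array weights and with the compared groups alone, and was 1 to 2 without a replicate.

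Over all genes, Sox2 48 h against NMP gave 1025 calls, 668 with a filter at 20 CPM, 3510 with array weights, 680 with the replicate block and 1760 alone (316 to 1569 without a replicate). Tbxt 48 h against NMP gave 2376, and 4834 with array weights (709 to 3081 without a replicate). The 48 h sorts gave 505, 1221 with array weights and 1051 alone (132 to 936). Sox2+ against DN gave 1826, 4032 with array weights and 1179 alone. FGF against FGF/CHIR gave 1786, and 3908 with array weights. The interaction gave 316, 520 with no filter, 1444 with array weights, 194 with the replicate block and 185 alone (184 to 708). The cause was not tested.

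Some differences that never passed changed sign: Foxb1 between the 48 h sorts (-0.038 to 0.13 without a replicate, with -0.025 without Tbxt 48 h replicate 1), Nes between media (0.011 at a pseudocount of 4, 0.13 without FGF Sox2+ replicate 1), Foxb1 between media (-0.15 at a pseudocount of 4), and in the interaction Fabp7 (1.16 at a pseudocount of 4) and Ptn (0.039 with quantile normalization, -0.34 to 0.21 without a replicate). The replicate numbers were not shown to pair libraries: deviations of same-numbered libraries correlated at -0.18 to 0.49 between groups, so the replicate block is only an alternative. The calls it ended among these members were Foxb1 in Sox2 48 h (limma, adjusted p = 0.115) and in Tbxt 48 h (0.0513). Crossing the numbers between the 48 h sorts, added after seeing the data, gave 433 calls, 0 of them members. A pseudocount of 0.25 ended the same 2 calls (0.222 and 0.116), and that in Sox2 48 h was also lost with no filter (0.0602). Nes lost its call against Tbxt 7 d with the compared groups alone (0.0684).

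The depth of FGF Sox2+ replicate 2 means that levels under 3.76 CPM cannot be told from 0 there. Without it the group has 1 library.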
